A study of Mus musculus with 4 samples.

Results

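Supporting-like cells (SLCs) are somatic cells of the fetal mouse gonad that border the mesonephros, the transient kidney next to it. All cells that the deposited annotation calls SLCs were taken, which gave 1546 of 52745 cells in 4 samples. Each sample was 1 single-cell RNA-seq pool of 3 to 4 pairs of gonads with their mesonephros, sequenced from the 3′ end of the RNA with unique molecular identifiers (UMIs), so that each count is 1 captured RNA molecule. XY control embryos at E11.5 (embryonic day) came from the parental G4 mouse embryonic stem cell line (XY, C57BL/6J and 129 F1 hybrid) by tetraploid complementation. XY KO embryos at E11.5 and at E11.75 came in the same way from G4 cells edited with CRISPR/Cas9 and lacked both copies of the miR-17~92 microRNA cluster in all cells. XX control embryos at E11.5 came from breeding C57BL/6J males with 129 females, and the labels give the strain of all 4 samples as C57BL/6 x 129S4/SvJae. With 1 pool a group there is no replicate of any group: no test between groups was possible, the spread between embryos is unknown, and every interval given here is a 95% interval that covers counting error only. The deletion, the edited stem cell clone and the pool cannot be told apart, and in the XX control sex, breeding and pool cannot be told apart either. The study's methods list the cell numbers of both KO samples the other way round, so the stage of each KO sample was taken from its label. Cells annotated as Sertoli were 24 of 4767 gonadal cells (0.503%) in the E11.5 KO and 168 of 3043 (5.52%) in the E11.75 KO. The study's results give the same 5.52% for its E11.75 mutants, which matches the labels. The files hold 2 technical runs for each E11.5 sample and 1 for XY KO E11.75, which is how the methods describe those names.

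In the early gonad, pre-supporting cells become Sertoli cells in the testis or granulosa cells in the ovary. SLCs are known as a related lineage that expresses the kidney transcription factor Pax8 and the signal Wnt4, that forms the rete testis and rete ovarii connecting the gonad to the mesonephric tubules, and that adds some cells to the supporting lineage. MicroRNAs of the miR-17~92 cluster pair through their seed with sites in the 3′ untranslated regions (UTRs) of messenger RNAs and lower the output of those messages, and they are known for promoting growth and proliferation.

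The 6 mature microRNAs that the deletion removes are printed because the KO cells were edited to lack them. Their seeds also define the sites searched for further on. They lie within 1 kilobase on the plus strand of mouse chromosome 14 (GRCm38, chr14:115043684-115044496) inside the host gene Mir17hg, and the sequences are those of RefSeq for GRCm38.p6. Capitals mark the seed, bases 2 to 8, and the 6 sequences share 4 seeds, with miR-17-5p and miR-20a-5p carrying the same one and miR-19a-3p and miR-19b-3p another.
mmu-miR-17-5p: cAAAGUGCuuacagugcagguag
mmu-miR-20a-5p: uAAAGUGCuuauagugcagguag
mmu-miR-18a-5p: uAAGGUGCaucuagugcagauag
mmu-miR-19a-3p: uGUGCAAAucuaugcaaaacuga
mmu-miR-19b-3p: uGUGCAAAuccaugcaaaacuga
mmu-miR-92a-3p: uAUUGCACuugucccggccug

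Mir17hg, the noncoding host transcript of the cluster (chr14:115042879-115046727, plus strand), was counted in SLCs of every sample. It gave 37 UMIs in XY control, 181 in the E11.5 KO, 74 in the E11.75 KO and 15 in XX control, which are 13.1, 82.1, 98.8 and 12.1 CPM, the counts per 1000000 UMIs of the SLCs of each sample. Both KO samples lay above both controls, with a log2 ratio over XY control of 2.63 (2.13 to 3.20) at E11.5 and 2.91 (2.33 to 3.53) at E11.75. The share of SLCs with a Mir17hg UMI was 4.46% in XY control, 28.9% and 35.6% in the KO samples and 14.8% in the deeper XX control. These 3′ reads come from the host transcript and not from the mature microRNAs, so they do not check the deletion itself. The same ratio was 3.39 at E11.5 in pre-supporting cells and 2.70 in mesonephric tubules, so a higher host transcript was found in all 3 cell types.

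SLCs numbered 785 in XY control, 499 in the E11.5 KO, 174 in the E11.75 KO and 88 in XX control, with 2829094, 2204336, 749156 and 1239569 UMIs in all. The median SLC held 3447, 4305, 4072 and 13182 UMIs, so the few XX cells were the deepest and a count in the E11.75 KO was the least precise. No cell barcode was shared between SLCs of different samples. The median share of mitochondrial UMIs was 5.04%, 5.06%, 6.70% and 3.81%, and Gm42418, a locus that overlaps ribosomal RNA, stood at 5199, 4646, 12656 and 6209 CPM, so XY KO E11.75 was highest on both. Hemoglobin and related erythroid transcripts summed to 3584, 1409, 1895 and 1055 CPM. XY control was highest, and the part of these transcripts in the results was not tested.

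Of the 5 markers named for SLCs, Pax8 and Ncam1 were highest in SLCs of all 4 samples. Cdkn1c and Aldh1a3 were shared with other cell types, and Dll3 went against the name. Levels here are CPM of summed UMIs, and since the annotation was built from these same genes they describe the cells and are no test. Pax8, a paired-box transcription factor of kidney and thyroid development, stood at 139 CPM (125 to 153) in XY control, 88.9 (76.9 to 102) in the E11.5 KO, 163 (135 to 194) in the E11.75 KO and 130 (111 to 152) in XX control. In each sample this was the highest level among the cell types with at least 50 cells, ahead of the mesonephric tubules at 78.9, 79.9, 94.0 and 56.3 CPM and far ahead of pre-supporting cells at 15.3, 11.1, 14.8 and 24.9. In XY KO E11.5 the intervals of SLCs and tubules overlapped, which they did not in the other 3 samples.

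Ncam1, a neural cell adhesion molecule, was also highest in SLCs of all 4 samples, at 594 (566 to 623), 540 (510 to 572), 617 (562 to 676) and 374 CPM (341 to 410) in the order XY control, E11.5 KO, E11.75 KO and XX control, which is kept from here on. Pre-supporting cells held 59.7, 74.1, 76.5 and 54.4 CPM of Ncam1. The next highest cell type was closer. Mesonephric mesenchyme held 327 CPM in XY control and 544 in the E11.75 KO, tubules 352 in the E11.5 KO, and interstitial progenitors 255 in XX control. Cdkn1c, an imprinted inhibitor of cyclin-dependent kinases, was abundant in SLCs at 1606, 1405, 1374 and 1927 CPM but was exceeded by 3 other cell types in each sample, adrenosympathetic cells foremost. Aldh1a3, a retinoic acid synthesis enzyme, stood at 18.7, 7.26, 36.0 and 9.68 CPM from 53, 16, 27 and 12 UMIs, and the tubules held more of it in 3 of the 4 samples. Dll3, a ligand-type inhibitor of Notch signalling, gave only 6, 8, 1 and 3 UMIs in SLCs, or 2.12, 3.63, 1.33 and 2.42 CPM. Pre-supporting cells held 8.88, 5.14, 4.14 and 7.82 CPM of Dll3, and adrenosympathetic cells, where it was highest, 159, 85.7, 110.2 and 71.1.

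A gene outside those 5 had a clearer pattern. Wnt4, the ovary-promoting signal that is also used by kidney tubules (chr4:137277489-137299726, plus strand), was higher in SLCs than in any other cell type of all 4 samples, at 1733, 1880, 1627 and 1463 CPM. Pre-supporting cells held 539, 712, 753 and 756 CPM and tubules 262, 499, 226 and 150. Nr0b1, a nuclear receptor of the early gonad and adrenal, stood at 118, 78.0, 92.1 and 165 CPM in SLCs, little above the next cell type, which held 110 CPM in XY control, 73.1 in the E11.5 KO and 131 in XX control (pre-supporting cells) and 83.8 in the E11.75 KO (Sertoli cells). Nr5a1, the steroidogenic factor that marks gonadal somatic cells, stood at 98.3, 75.3, 119 and 71.0 CPM in SLCs, below pre-supporting cells at 162, 140, 217 and 100 and well above tubules at 6.62, 3.0, 6.80 and 2.82. Pax2, the partner of Pax8 in the kidney, lay far below the tubules in SLCs.

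**Figure D1:**
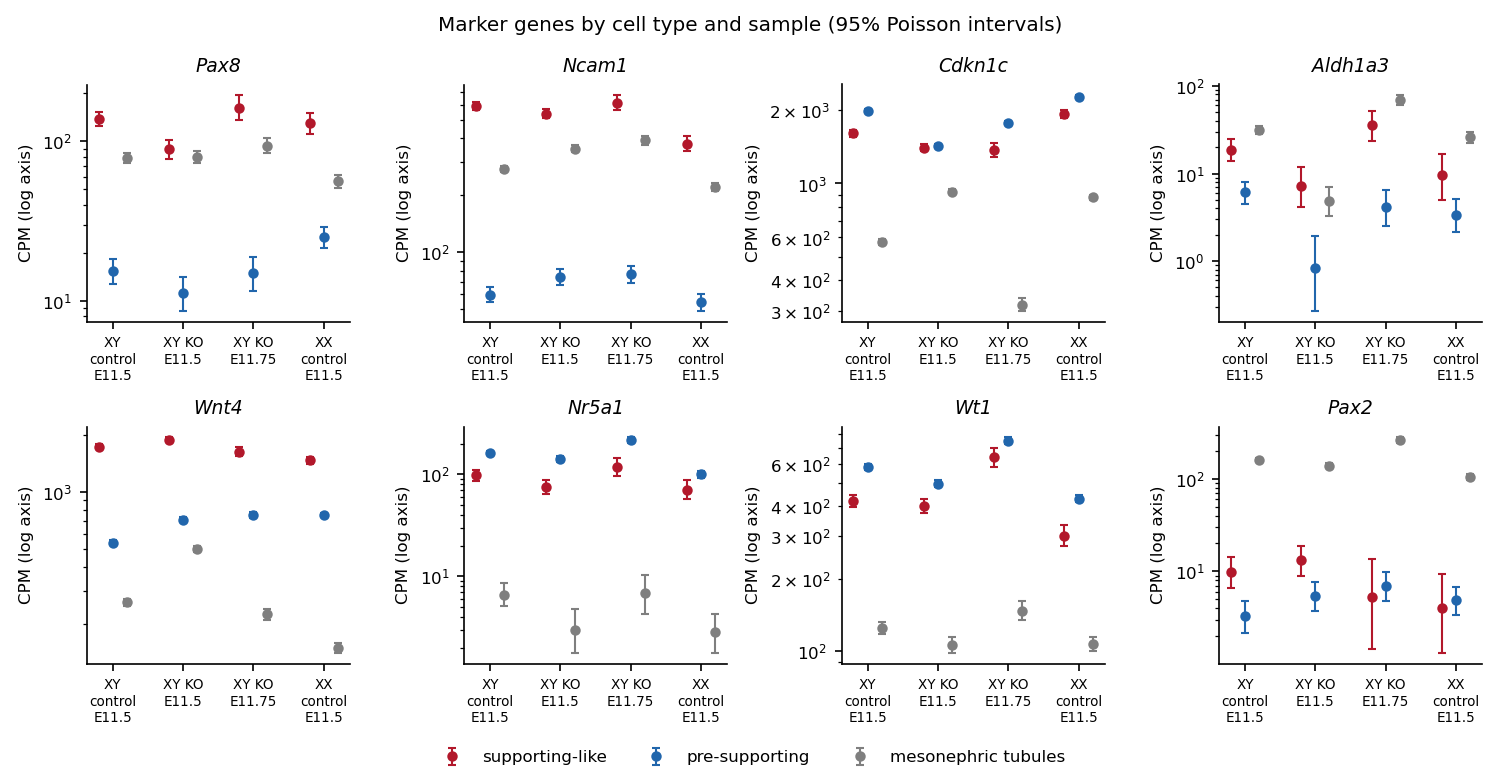
Level of 8 genes (CPM of summed UMIs, log axis) in SLCs, pre-supporting cells and mesonephric tubules, with 1 point for each of the 4 samples and bars for the 95% Poisson interval of the count. Pax8, Ncam1 and Wnt4 lie highest in SLCs, Nr5a1 and Wt1 lie near pre-supporting cells, and Pax2 lies far below the tubules.

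Genes that no marker list held also separated SLCs from pre-supporting cells and tubules. Among 8261 genes with at least 100 UMIs in SLCs, 84 were at least 2-fold higher in SLCs than in both pre-supporting cells and tubules in each of the 4 samples, and 13 were at least 4-fold higher. Ranked by the smallest log2 ratio over the higher of both cell types in any sample, Vstm2l led with 3.89, followed by Slc44a5, a choline transporter-like protein, with 3.68, and Pla2r1, the M-type phospholipase A2 receptor, with 2.99. Their levels were low, at 30.4, 20.4, 21.4 and 23.4 CPM for Vstm2l, 37.8, 26.3, 28.0 and 26.6 for Slc44a5 and 36.8, 39.9, 69.4 and 37.1 for Pla2r1. G6pc2, a glucose-6-phosphatase subunit known from pancreatic islets, followed the same pattern with 27.2, 25.9, 18.7 and 43.6 CPM and a smallest log2 ratio of 2.68. Tbx1, a T-box transcription factor of pharyngeal and cardiac development, stood at 28.6, 22.2, 13.3 and 29.0 CPM with a smallest ratio of 2.01. These ratios describe how the annotated groups differ and were part of what the clusters were built on.

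Dlk1 was by far the most abundant of the 15 genes so ranked. Dlk1, an imprinted membrane protein that acts on Notch signalling (chr12:109452823-109463336, plus strand), stood at 1313, 1440, 571 and 1250 CPM in SLCs. Pre-supporting cells held 80.3, 166, 95.7 and 97.2 CPM and tubules 115, 163, 101 and 111. Htra1, a secreted serine protease, was the next most abundant, at 149.9, 210.5, 175 and 114 CPM. Slc44a5, Pla2r1, Wscd2, Flvcr2, G6pc2, Adtrp, Col6a6, Htra1 and Plppr4 were highest in SLCs among the cell types ranked in all 4 samples, while Dlk1 was exceeded by at least 1 other cell type in the 3 XY samples, Tbx1 and Scrn1 in XY control and the E11.75 KO, Vstm2l in the E11.75 KO, Slc22a3 in XY control and Cnr1 in the E11.5 KO.

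**Figure D2:**
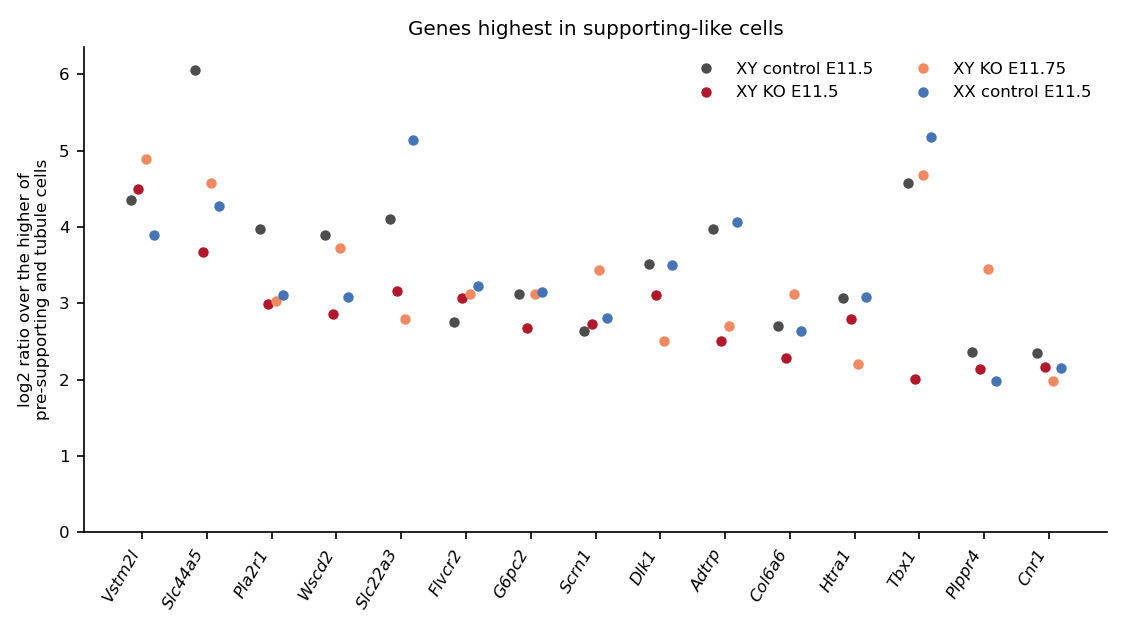
Log2 ratio of the level in SLCs over the higher of pre-supporting cells and mesonephric tubules for the 15 genes with the largest smallest ratio, with 1 symbol per sample. All points lie above 0, from Vstm2l, whose smallest ratio is 3.89, down to Cnr1 with 1.98.

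How many SLCs each sample held depended on what they were counted against. They made up 10.8% (10.1 to 11.6) of the cells of the gonadal types in XY control, 10.5% (9.61 to 11.4) in the E11.5 KO, 5.72% (4.92 to 6.60) in the E11.75 KO and 8.95% (7.24 to 10.9) in XX control. The 2 technical runs gave 10.3% and 11.3% in XY control, 10.4% and 10.6% in the E11.5 KO, and 9.23% and 8.64% in XX control. The share in the E11.75 KO lay below the intervals of the 3 other samples, and those of the 3 other samples overlapped. Against the pre-supporting cells alone, SLCs were 32.4% of the sum of both types in XY control (30.5 to 34.3), 31.5% in the E11.5 KO (29.2 to 33.9), 15.8% in the E11.75 KO (13.7 to 18.1) and 20% in XX control (16.4 to 24.0). By this count XX control lay with XY KO E11.75 and apart from the XY control. Against the tubules they were 31.3%, 35.2%, 25.3% and 19.8%, where XX control was lowest. SLCs were also shallow cells, with 268 of 785 under 3000 UMIs in XY control, so that a filter on depth moves these shares, and how much tissue was dissected was not measured.

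UMIs of gonadal and of kidney factors were counted in the same SLCs. To compare cells of unequal depth each cell was thinned to 3000 UMIs, which left 517, 438, 141 and 86 SLCs. A Pax8 UMI was then found in 34.0% of SLCs in XY control, 21.5% in the E11.5 KO, 33.3% in the E11.75 KO and 31.4% in XX control. Without thinning these shares were 36.8%, 30.3%, 45.4% and 70.5%. Endothelial cells, which should lack the gene, showed a thinned share of 0.655% or 0.699% in XY control and XY KO E11.75 and no Pax8 UMI in the other two samples, and their unthinned shares were 1.03%, 0.645%, 1.27% and 2.04% at median depths of 4796, 8373.5, 5343 and 17632 UMIs. The Pax8 share in pre-supporting cells was 4.29%, 3.11%, 4.09% and 5.44%, and in tubules 19.3%, 19.5%, 23.7% and 14.6%.

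Nr5a1 was found in 24.95%, 17.4%, 28.4% and 18.6% of thinned SLCs, against 36.2%, 33.9%, 46.2% and 26.9% of pre-supporting cells, at most 2.02% of tubule cells and at most 2.10% of endothelial cells. Wt1, the Wilms tumour factor of gonad and kidney, was found in 69.4%, 68.7%, 82.3% and 66.3% of SLCs and in 78.1%, 73.8%, 86.2% and 68.5% of pre-supporting cells, with endothelium at 10.8% or below. Other gonadal factors were less frequent in SLCs than in pre-supporting cells. Gata4, a zinc finger factor of the early gonad, was found in 21.7%, 16.9%, 36.2% and 16.3% of SLCs against 51.5%, 41.8%, 49.6% and 49.9% of pre-supporting cells. Lhx9, a LIM homeobox factor of the coelomic epithelium and early gonad, was found in 8.12%, 6.39%, 12.8% and 9.30% of SLCs, against an endothelial background of 4.42%, 1.45%, 9.79% and 5.00%, and in 45.3% or more of pre-supporting cells. On the kidney side the partners of Pax8 were less frequent. Pax2 was found in 2.13%, 3.42%, 1.42% and 2.33% of SLCs, in 0.818%, 0.362%, 0.699% and 0% of endothelial cells, the last from 80 cells and with an upper limit of 4.51%, and in 36.0%, 30.1%, 49.9% and 25.1% of tubule cells, and Lhx1 in 3 of 517, 0 of 438, 1 of 141 and 0 of 86 SLCs.

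At least 1 gonadal factor (Nr5a1, Wt1, Gata4 or Lhx9) and at least 1 of Pax8, Pax2, Lhx1 and Emx2, or both kinds, were detected in 51.5%, 42.5%, 61.7% and 47.7% of thinned SLCs, but Emx2, a homeobox gene of the whole urogenital ridge, was also found in 53.7% or more of pre-supporting cells. Pax8 and a gonadal factor were detected together in 29.2% of SLCs in XY control (25.3 to 33.3), 17.8% in the E11.5 KO (14.3 to 21.7), 28.4% in the E11.75 KO (21.1 to 36.6) and 26.7% in XX control (17.8 to 37.4). This share cannot exceed that of Pax8, a marker named for SLCs, so it describes the annotated cells and is no test. The gonadal factor found most often was Wt1, which the kidney also uses. For pre-supporting cells the same share of Pax8 and a gonadal factor was 4.02%, 2.72%, 3.97% and 5.16%, for tubules 6.28%, 6.75%, 8.74% and 3.71%, and for endothelium 1 of 611 cells in XY control and none in the other 3 samples. The interval of XY KO E11.5 lay below that of XY control and overlapped that of XX control. In SLCs the share of Nr5a1 among cells with Pax8 was 23.3%, 10.6%, 19.1% and 22.2%, and that of Nr5a1 among cells without Pax8 was 25.8%, 19.2%, 33.0% and 16.9%. The share of Wt1 among cells with Pax8 was 75%, 75.5%, 78.7% and 66.7%, and that of Wt1 among cells without Pax8 was 66.6%, 66.9%, 84.0% and 66.1%.

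Few SLCs, and few pre-supporting cells, carried a strong mitotic signature by a limit of 15 UMIs that was chosen after seeing the data. Counted over a list of 52 G2/M genes in cells thinned to 3000 UMIs, at least 15 UMIs were found in 2.13% of SLCs in XY control (1.07 to 3.78), 2.97% in the E11.5 KO (1.59 to 5.02), 1.42% in the E11.75 KO (0.172 to 5.03) and 5.81% in XX control (1.91 to 13.0). The tubules, a proliferating epithelium, held 27.8%, 32.9%, 36.0% and 41.1% of such cells, and pre-supporting cells 3.81%, 3.4%, 1.68% and 8.02%. For 42 S phase genes the share of SLCs was 0.580%, 1.37%, 0% (up to 2.58%) and 4.65%, against 3.07%, 2.14%, 3.13% and 1.72% of pre-supporting cells. SLCs lay far below the tubules on the G2/M list, and the G2/M intervals of the 4 SLC samples overlapped. A lower limit of 2 UMIs did not separate the cell types, since over 90% of SLCs passed it on either list in every sample. RNA outside cells also adds UMIs to these counts.

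**Figure D3:**
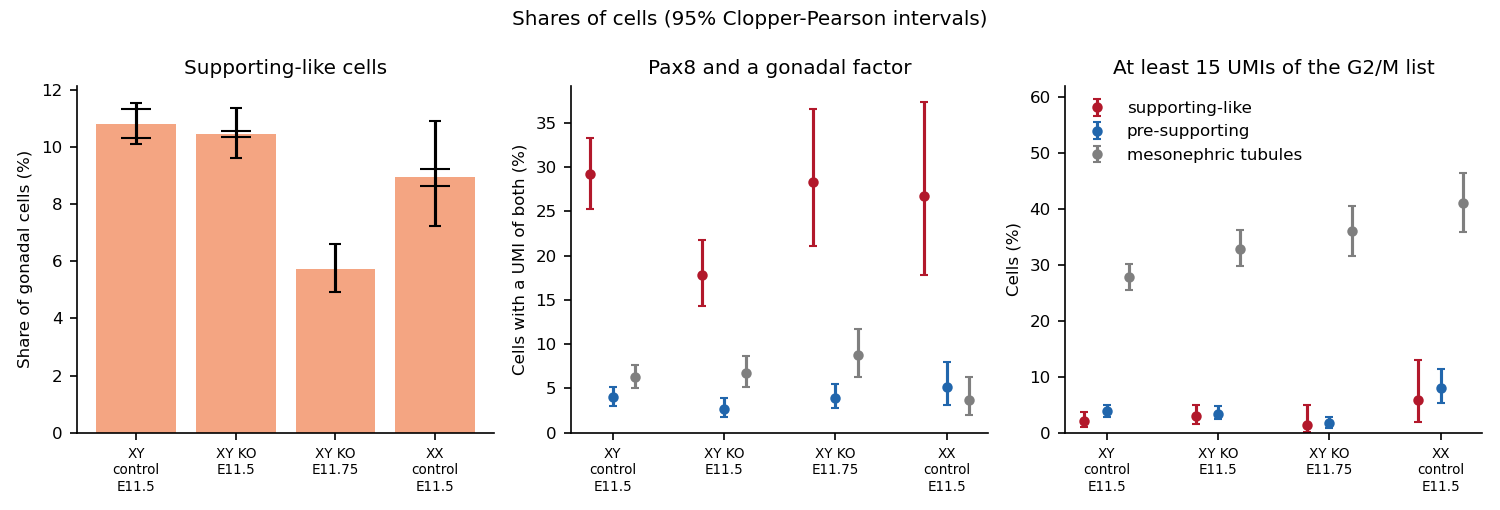
Left, SLCs as a percentage of the cells of the gonadal types, with the technical runs as ticks; middle, percentage of cells with UMIs of Pax8 and of a gonadal factor; right, percentage of cells with at least 15 UMIs of the G2/M list, both after thinning to 3000 UMIs. Bars are 95% exact binomial intervals. The left plot shows the low share of SLCs in the E11.75 KO (5.72%). The middle share cannot exceed the share of cells with Pax8, a marker named for SLCs. The right plot shows the low G2/M share of SLCs and of pre-supporting cells next to tubules.

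At E11.5, SLCs of the KO were compared with those of XY control by the log2 ratio of summed UMIs. This covered 7134 genes whose UMIs in both samples summed to at least 100. SLCs of the KO held more RNA of glycolytic genes, less Sox9 and almost no H19. The level of 18 genes was at least 2-fold higher, which is 0.252% of the genes compared, and of 40 genes at least 2-fold lower, which is 0.561% (together 0.813%). Scaling with TMM factors instead of totals gave 28 higher and 32 lower, and the median gene stood at −0.09, so the balance of both directions depended on the scaling. Between the 2 runs of XY control 1 of 5083 genes passed 2-fold, or 0.0197%, and between those of XY KO E11.5 2 of 3882, or 0.0515%, which measures technical spread and not that between embryos.

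Among the pathway lists glycolysis had the largest shift. Of 23 genes listed, 18 had enough UMIs, 3 of them were at least 2-fold higher and none lower, and the list's median log2 ratio of 0.69 lay 0.78 above the median of all genes. Intervals of 15 genes lay above 0 and that of 1 below, against 7.12% above and 16.3% below among all genes tested. With TMM factors Ldha also passed 2-fold (1.04). Slc16a3, the lactate exporter MCT4, stood at 24.4 CPM in XY control, 83.9 in the E11.5 KO, 26.7 in the E11.75 KO and 15.3 in XX control, a log2 ratio of 1.78 (1.38 to 2.20) at E11.5. Hk2, the hexokinase of the first glycolytic step, stood at 25.4, 80.7, 49.4 and 30.7 CPM, a ratio of 1.66 (1.26 to 2.08). Pdk1, a kinase that holds pyruvate back from the mitochondrion, stood at 32.9, 73.9, 37.4 and 26.6 CPM, a ratio of 1.17 (0.79 to 1.55). For all 3, XY KO E11.5 was the highest sample.

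Lower-fold members moved in the same sample. Ldha, which makes lactate from pyruvate, stood at 222, 426, 204 and 178 CPM (0.94 at E11.5), Tpi1 at 283, 488, 263 and 286 (0.78), Aldoa at 409, 663, 294 and 477 (0.70), and the glucose transporter Slc2a1 at 41.0, 72.1, 40.0 and 26.6 (0.81). The exception was Ldhb, the other lactate dehydrogenase subunit, which was lower, at 989, 715, 585 and 1129 CPM (−0.47). Over XY control the glycolysis list's median minus that of all genes was −0.22 in the E11.75 KO, where 14 of its genes were tested with none past 2-fold (with TMM factors Gapdh alone, at −1.04), and −0.06 in XX control. The same list lay 0.56 above the median gene at E11.5 in pre-supporting cells and 0.42 in tubules, so the shift was not particular to SLCs, and between the runs of a sample it moved by 0.07 or less. RNA of Hif1a, which encodes a low-oxygen response factor, stood at 152 CPM in XY control and 123 in the E11.5 KO. The activity of that factor was not measured, and whether oxygen had a part in the shift was not tested.

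Sex determination genes lay on the low side in the E11.5 KO. Of 25 genes listed, 13 had enough UMIs, none was 2-fold higher and Sox9 alone was 2-fold lower, with the list's median minus that of all genes at −0.38 and with intervals of 7 genes below 0 (16.3% of all genes) and of 2 above (7.12% of all genes). Sox9, the testis-determining SRY target, stood at 74.9 CPM in XY control, 32.7 in the E11.5 KO, 97.4 in the E11.75 KO and 81.5 in XX control, or 212, 72, 73 and 101 UMIs. XY KO E11.5 was the low sample, with a log2 ratio of −1.19 (−1.60 to −0.81), and XX over XY control SLCs had a ratio of 0.12 (−0.24 to 0.47). In pre-supporting cells Sox9 stood at 199.6, 20.1, 88.0 and 9.29 CPM, so there the XX control was lowest. Sry, the Y-linked trigger, gave 3, 0, 1 and 0 UMIs in SLCs, too few to compare, while pre-supporting cells gave 115, 31, 66 and 0.

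Genes of the ovarian side did not move together in SLCs at E11.5. Rspo1, the WNT-enhancing ovary factor, was higher, at 82.0, 149, 121 and 88.7 CPM, with a ratio of 0.86 (0.62 to 1.11), as in pre-supporting cells where it was also 0.86. Fst, which encodes follistatin, was lower, at 58.3, 30.4, 203 and 65.3 CPM, with −0.93 (−1.37 to −0.52). Its UMIs came from few cells, with a Fst UMI in 10.1%, 8.22%, 27.0% and 25% of SLCs. The 5% of SLCs richest in Fst held 75.8%, 74.6%, 40.8% and 54.3% of its UMIs, which the counting interval does not cover. Runx1, a granulosa-side transcription factor, stood at 71.0, 51.3, 154 and 65.3 CPM (−0.47), and Wnt4 differed little (0.12). Among the 30 tested genes of the WNT pathway list, Wnt5a alone passed 2-fold, at 34.6, 79.8, 82.8 and 19.4 CPM with a ratio of 1.20 (0.84 to 1.58). None of 18 Notch pathway, 14 retinoic acid, 8 FGF or 13 BMP and TGF-beta genes passed 2-fold. Nor did any of 19 adhesion genes. With 0.813% of all genes past 2-fold, this sets none of these lists apart. Intervals of 9 adhesion genes lay above 0 and of 2 below, against 7.12% and 16.3% of all genes. Among the FGF genes 1 lay above and 4 below. The FGF list's median minus that of all genes was −0.36. Of 14 gonadal transcription factors tested none passed 2-fold. Intervals of 4 lay below 0 and of 1 above, against 16.3% and 7.12% of all genes. The list's median lay only 0.0062 above that of all genes. Wt1 was at −0.07, Gata4 at −0.28 and Nr5a1 at −0.38 (−0.67 to −0.10), while Pax8 itself was lower, with −0.64 (−0.89 to −0.39).

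**Figure D4:**
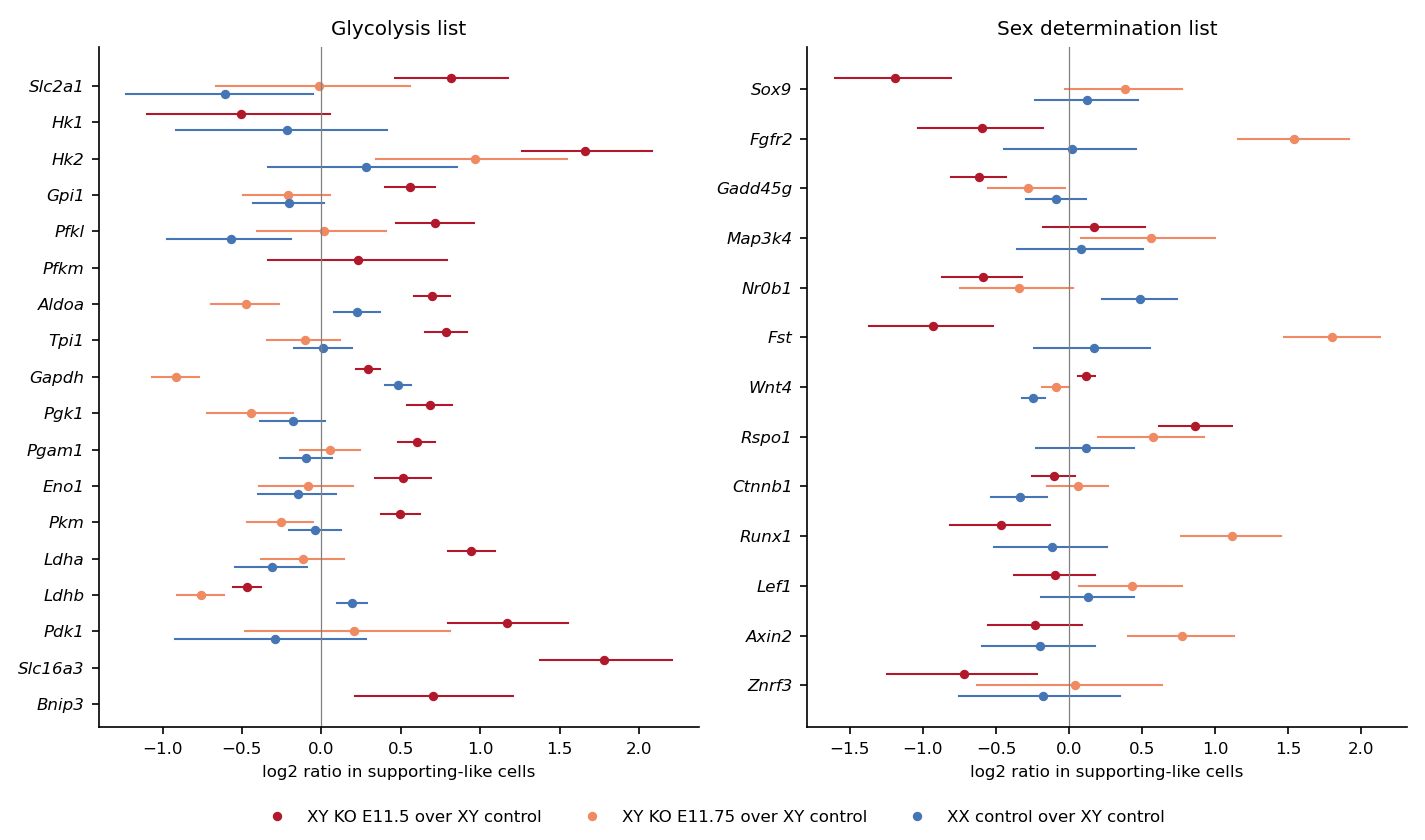
Log2 ratios in SLCs for the glycolysis and sex determination genes, for the E11.5 KO, the E11.75 KO and the XX control, each over XY control, with 95% counting intervals. Glycolysis genes such as Slc16a3 (1.78) and Hk2 (1.66) lie furthest to the right in the E11.5 KO, and Sox9 (−1.19), Fst and Runx1 lie left at E11.5 and to the right or near 0 in the E11.75 KO.

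H19 had the largest ratio of all. H19, the imprinted noncoding RNA next to Igf2 (chr7:142575529-142578143, minus strand), gave 2804 UMIs in XY control, 53 in the E11.5 KO, 6 in the E11.75 KO and 1883 in XX control. The levels were 991, 24.0, 8.01 and 1519 CPM, so both KO samples lay far below both controls, with log2 ratios of −5.35 (−5.79 to −4.97) and −6.84 (−8.40 to −5.83) over XY control. A single cell held 38 of the 53 UMIs in the E11.5 KO, and without it the ratio was −7.14. The gene was also low in the other KO cells, at −6.53 in pre-supporting cells and −6.26 in tubules. Its neighbour Igf2, the imprinted growth factor, stood at 84.8, 126, 90.8 and 69.4 CPM (0.57 at E11.5). Of 32 imprinted genes tested at E11.5 H19 alone passed 2-fold, against 0.813% of all genes. Intervals of 6 lay above 0 and of 9 below, against 7.12% and 16.3% of all genes. Both KO samples came from edited stem cell clones, and the deletion and the clone cannot be told apart.

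Mylip, Kdr, Wnt5a, Igfbp2, Fbn2 and Hmcn1 were picked, besides Mir17hg, for being 2-fold higher than XY control in both KO samples. Both ratios share that control, so their like sign is no independent evidence, and of 5987 genes tested in both comparisons, leaving out Gm42418 and the genes of mitochondria, ribosomal proteins and globins, 10 were 2-fold higher at E11.5 and 156 at E11.75. Mylip, an E3 ubiquitin ligase that degrades the LDL receptor (chr13:45389742-45412022, plus strand), stood at 25.4, 65.8, 52.1 and 18.6 CPM, with log2 ratios of 1.36 (0.95 to 1.80) at E11.5 and 1.04 (0.43 to 1.61, and 0.91 with TMM factors) at E11.75. Fbn2, an extracellular matrix fibrillin, stood at 71.4, 151, 252 and 41.1 CPM (1.08 and 1.82), and Igfbp2, which binds insulin-like growth factors, at 85.5, 174, 215 and 79.9 (1.02 and 1.33). Kdr, the VEGF receptor of endothelium, stood at 30.8, 69.4, 73.4 and 19.4 CPM (1.17 and 1.26). The 5 endothelial markers, Kdr among them, summed to 66.8, 103, 97.4 and 40.3 CPM in SLCs. Pecam1 had 17, 8, 4 and 3 UMIs and Cdh5 12, 6, 2 and 1, too few for a ratio to be read. Egfl7, the other endothelial marker with enough UMIs at E11.5, had a log2 ratio of 0.14 (−0.39 to 0.66) there. The part of endothelial transcripts in the Kdr values was not tested.

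On the low side, Cpa1, Dppa5a, Lor, Mmp17, Asns and Ckb were picked in the same way for being 2-fold below XY control in both KO samples besides H19, where 33 and 95 of the 5987 genes were 2-fold lower. Cpa1, a carboxypeptidase, stood at 48.4, 5.44, 14.7 and 20.2 CPM, with ratios of −3.10 (−4.14 to −2.30) and −1.66, and XX control also lay below XY control. Dppa5a, a pluripotency-associated RNA-binding protein, stood at 59.0, 17.2, 18.7 and 44.4 CPM (−1.76 and −1.61). Ckb, the brain-type creatine kinase, stood at 43.8, 20.9, 5.34 and 32.3 CPM (−1.06 and −2.87), where the last KO value rests on few UMIs.

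Of the genes above 2-fold in both KO samples, Mylip is the one whose annotated 3′ UTR holds a perfect site for the cluster. Perfect sites were searched on the transcript strand as the 8-letter match to a seed followed by A, written GCACTTTA for miR-17, GCACCTTA for miR-18, TTTGCACA for miR-19 and GTGCAATA for miR-92, over the annotated 3′ UTRs of 21028 genes (GENCODE M21, mm10). At least 1 was found in 2383 genes or 11.3%, with 3.5%, 1.33%, 5.30% and 2.28% for the 4 families. The windows in Mylip, with the match in capitals, are shown as what a base-paired site of the deleted microRNAs looks like in a gene that was higher in both KO samples. The miR-19 match lies at chr13:45411824-45411831, bases 1314 to 1321 of the 1512-base UTR, and the miR-92 match at chr13:45411710-45411717, bases 1200 to 1207. A match is a description and not a shown site of repression, and for Igfbp2, Wnt5a, Kdr, Fbn2 and Hmcn1 the search says only that these letters are not in their annotated 3′ UTR.
Mylip miR-19 window: gcatttgtttcTTTGCACAgacattttgtc
Mylip miR-92 window: gacctcatcggGTGCAATActagctaagtt

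Genes with such a site were compared with all tested genes in SLCs. The 982 of 7010 tested genes with a perfect site for any of the 4 families had a median log2 ratio of −0.07, against −0.09 for all genes, with 1 past 2-fold higher and 3 lower, or 0.102% and 0.305%, against 0.252% and 0.561% of all genes. Within the classes of short, middle and long 3′ UTRs, genes with a site exceeded those without by 0.09, 0.07 and 0.05 at E11.5. Of 43 targets known from other tissues, 28 were tested and Mylip alone passed 2-fold, with the list's median 0.09 above that of all genes. At E11.75, 22 of the known targets were tested, 3 were 2-fold higher (1 with TMM factors), and their median lay 0.35 above that of all genes. Among the 814 genes with a site tested at E11.75, 45 were 2-fold higher and 5 lower, or 5.53% and 0.614%, against 2.78% and 1.62% of all genes, and their median was 0.34 against 0.11 for all. The length of the 3′ UTR moved with the ratio at that stage, however: the median was −0.20, 0.13 and 0.35 in genes with short, middle and long UTRs, and genes with a site exceeded those without by 0.40, 0.13 and 0.06 within these classes. For XX over XY control, where the cluster is intact in both, the median with a site was −0.17 against −0.09, and the same differences within the classes were −0.14, −0.02 and −0.02. Spearman's rho of UTR length with the log2 ratio, a description across genes that are not replicates, was −0.15 at E11.5, 0.44 at E11.75 and −0.26 in XX, and the part of UTR length in these shifts was not tested further.

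For SLCs at E11.5, the log2 ratio between KO and XY control was set against that of pre-supporting cells from the same pools. The comparison held 6955 genes with enough UMIs in both cell types. In either ratio the deletion, the clone and the pool cannot be told apart. The interval of the difference between both log2 ratios excluded 0 for 1014 genes, counting error only. Sox9 was lower in both cell types but by less in SLCs, with −1.19 against −3.31 and a difference of 2.12 (1.65 to 2.59), and at E11.75 the difference was 1.57. Lmo4, a LIM-only transcription cofactor, was 0.20 in SLCs and −1.67 in pre-supporting cells, a difference of 1.88 (1.41 to 2.35). Fbln2, an extracellular matrix fibulin, stood at 12.0 CPM in XY control SLCs and 29.9 in the E11.5 KO, a ratio of 1.31, and was −0.88 in pre-supporting cells. Olfml3, Rasl11a and Adamts9 were likewise lower in pre-supporting cells and near 0 in SLCs, with differences of 1.67, 1.61 and 1.54. At E11.75 the difference for Rasl11a was 0.66 (−0.15 to 1.46), an interval that included 0.

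Lrrn1, Plac8, Acrbp, Zfp354c and Cd82 had higher ratios in KO pre-supporting cells than in SLCs. Lrrn1, a leucine-rich repeat membrane protein, was −0.24 in SLCs and 1.79 in pre-supporting cells, a difference of −2.02 (−2.57 to −1.47) that was −2.06 at E11.75. Plac8, a small cysteine-rich protein, stood at 563, 520, 202 and 637 CPM in SLCs, a ratio of −0.11 against 1.31 in pre-supporting cells, a difference of −1.42 (−1.71 to −1.14). Acrbp differed by −1.65 and Zfp354c by −1.20. For Cd82 a difference of −1.24 became −0.12 (−0.86 to 0.61) at E11.75, an interval that included 0. Cpa1 was lower in both cell types, with −3.10 in SLCs and −1.25 in pre-supporting cells, a difference of −1.85 (−2.69 to −1.01) at E11.5 that was −0.20 at E11.75, with an interval that included 0. These genes were chosen for the size of their difference at E11.5 with the same sign at E11.75, so the values at E11.5 and the sign at E11.75 are a description, and both stages share XY control. A different make-up of either cell type and a change per cell cannot be told apart here.

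**Figure D5:**
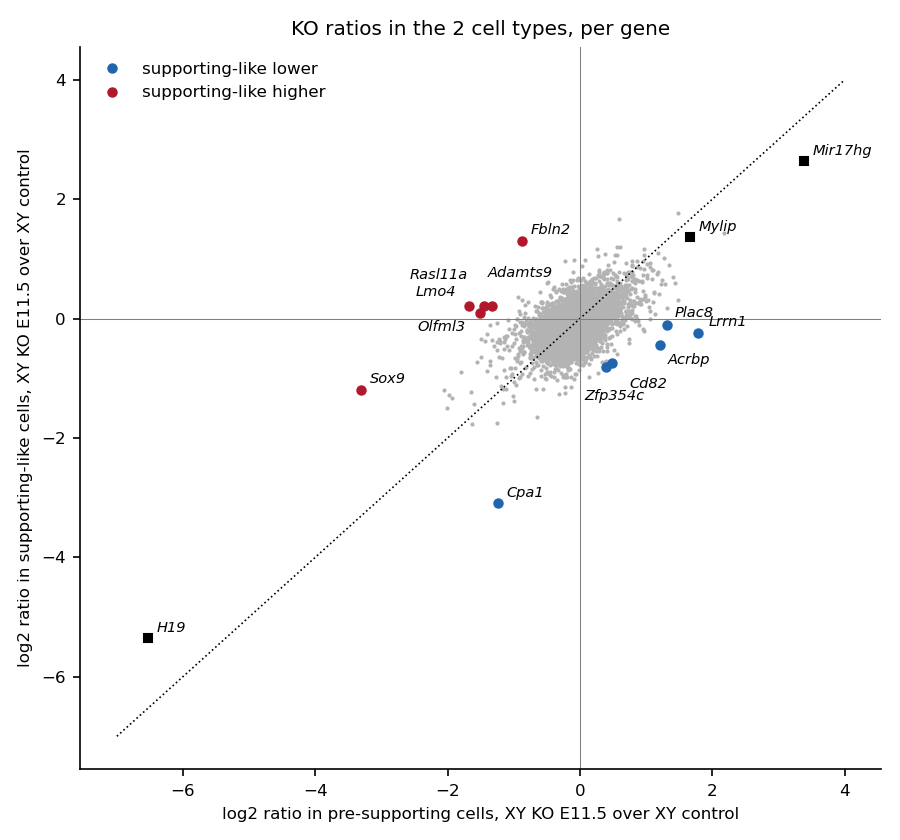
Log2 ratio of XY KO E11.5 over XY control in pre-supporting cells (x axis) and in SLCs (y axis) for 6955 genes, 1 point per gene, with the dotted line marking equal ratios. Coloured points are the genes named for a difference between cell types; Mir17hg and Mylip lie high and H19 low in both, Sox9 lies low in both but further in pre-supporting cells (−3.31 against −1.19), and Lrrn1 lies to the right of the line (1.79 against −0.24).

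At E11.75 the SLCs of the KO differed more widely from XY control at E11.5. No control was taken at E11.75, so stage, deletion, clone and pool cannot be told apart in this comparison. Of 6107 genes compared, 170 were at least 2-fold higher, which is 2.78%, and 99 at least 2-fold lower, which is 1.62% (together 4.4%). With TMM factors the split turned to 107 higher and 171 lower, and the median gene stood at 0.11, so ratios are best read against that value. Higher were the immediate early genes Egr1 and Fosb, Il6st and Itga6, and the cell cycle inhibitors Cdkn1a and Cdkn1b, and lower were Dlk1, Crabp1 and a few mitotic genes. The counts rest on 174 cells with the highest mitochondrial share and the highest Gm42418 level of the 4 samples, whose part was not tested. Ratios in this comparison also rose with the length of the 3′ UTR (Spearman's rho 0.44). The part of UTR length in the gene and list values was not tested.

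Egr1, a growth factor-induced transcription factor, stood at 34.6 CPM in XY control, 12.7 in the E11.5 KO, 219 in the E11.75 KO and 66.2 in XX control, with a log2 ratio over XY control of 2.66 (2.29 to 3.04). Fosb, another immediate early gene, stood at 31.5, 16.3, 171 and 36.3 CPM (2.44), and Il6st, the shared receptor subunit of the interleukin 6 family, at 58.7, 25.9, 247 and 26.6 (2.07). For each of these XY KO E11.75 was the highest sample and XY KO E11.5 the lowest. In pre-supporting cells at E11.75 the ratio of Egr1 was 1.24, of Fosb 1.88 and of Il6st 0.84.

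Cdkn1a, Cdkn1b and Ccnd2 were 2-fold higher in SLCs at E11.75, and 3 G2/M genes were 2-fold lower. Of 8 CDK inhibitors and G1 cyclins tested, these 3 passed 2-fold higher and none lower, against 2.78% and 1.62% of all genes. Intervals of 5 lay above 0 and of 2 below, against 23.9% and 16.6% of all genes. With TMM factors Ccnd2 was at 0.96, short of 2-fold. The list's median lay 0.78 above that of all genes, which became 0.34 with thinned cells and 0.22 with a minimum of 20 UMIs. Cdkn1a, which encodes p21, stood at 77.4, 77.6, 192 and 65.3 CPM (1.31, 1.0 to 1.62), Cdkn1b, which encodes p27, at 44.9, 51.7, 136 and 65.3 (1.60, 1.21 to 1.99), and the cyclin Ccnd2 at 102, 130, 216 and 52.4 (1.09, 0.80 to 1.37). For the 20 tested G2/M genes the list's median minus that of all genes was −0.55, or −0.35 both with thinned cells and with a minimum of 20 UMIs. Of these genes 3, Ube2c, Cdc20 and Cenpa, were 2-fold lower and none higher, against 1.62% and 2.78% of all genes. Intervals of 8 lay below 0 and of 1 above, against 16.6% and 23.9% of all genes. Cenpa, a centromeric histone, stood at 35.3, 41.3, 12.0 and 33.9 CPM, with 9 UMIs in the E11.75 KO. Cdkn1c, a further inhibitor, had a ratio of −0.22.

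Among sex determination genes at E11.75, Fst, Fgfr2 and Runx1 were 2-fold higher than XY control and none was 2-fold lower of 13 tested, against 2.78% and 1.62% of all genes. Intervals of 7 of the 13 lay above 0 and of 2 below, against 23.9% and 16.6% of all genes, and the list's median lay 0.33 above that of all genes. Fst had a ratio of 1.80 (1.47 to 2.13), and Fgfr2, the receptor through which FGF9 acts in the testis, stood at 48.8, 32.2, 141 and 49.2 CPM (1.54, 1.16 to 1.91). Runx1 had 1.11 (0.77 to 1.45), or 0.99 with TMM factors. In pre-supporting cells the E11.75 ratio of Fst was 1.79, close to that in SLCs. Of the WNT pathway list, Wnt5a (1.26), Wnt6 (1.09) and Lrp6 (1.02) were 2-fold higher and Sfrp1, a secreted WNT antagonist, was lower at 274, 278, 128 and 202 CPM (−1.09) of 26 tested. With TMM factors Wnt6 (0.97) and Lrp6 (0.89) were no longer 2-fold higher. Wnt6, a ligand of nephric epithelia, stood at 115, 117, 244 and 109 CPM, and its ratio in pre-supporting cells was −0.33.

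Of 17 adhesion genes tested at E11.75, Itga6, Alcam and Cdh11 were 2-fold higher and none lower, against 2.78% and 1.62% of all genes, although Cdh11 was at 0.88 with TMM factors. Itga6, the laminin-binding integrin subunit, stood at 138, 97.1, 434 and 88.7 CPM (1.66, 1.44 to 1.87). Of 13 gonadal transcription factors tested, Runx1 alone was 2-fold higher and none lower, with no call left under TMM factors. Intervals of 8 lay above 0 and of 0 below, against 23.9% and 16.6% of all genes, and the list's median lay 0.35 above that of all genes. Wt1, Gata4, Emx2 and Lhx9 had ratios of 0.60, 0.82, 0.77 and 0.86, all below 2-fold. Dlk1 was 2-fold lower, with −1.20 (−1.35 to −1.06), alone of 15 Notch pathway genes, while in pre-supporting cells its ratio was 0.25. Crabp1, a cellular carrier of retinoic acid, was 2-fold lower, at 34.3, 49.0, 9.34 and 40.3 CPM (−1.78, −3.23 to −0.78). Its E11.75 KO value rests on 7 UMIs. Kcnq1ot1, the imprinted antisense RNA of the Cdkn1c domain, was higher, at 561, 416, 1160 and 559 CPM (1.05, 0.93 to 1.17, and 0.92 with TMM factors), as in pre-supporting cells (1.11).

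Set against the KO at E11.5, SLCs of the KO at E11.75 had less glycolytic RNA and more of the sex determination genes that had been low. Of 5205 genes, 291 were at least 2-fold higher, which is 5.59%, and 82 at least 2-fold lower, which is 1.58% (together 7.17%), whereas TMM factors gave 113 higher and 228 lower, and the median gene stood at 0.17. All 15 tested glycolysis genes had intervals below 0, against 16.8% of all genes below and 30.9% above, and 5 were 2-fold lower (8 with TMM factors), with the list's median minus that of all genes at −1.0, against −1.0 in pre-supporting cells and −0.39 in tubules. Slc16a3 fell by 1.62 on the log2 scale. Sox9 (1.58), Fst (2.73), Fgfr2 (2.13), Runx1 (1.58) and the WNT target Axin2 (1.01) were 2-fold higher of 12 tested, Axin2 no longer with TMM factors (0.78). Sox9 thereby stood in KO SLCs at E11.75 at 97.4 CPM, above the 74.9 CPM of the XY control with overlapping intervals (a ratio of 0.39, −0.03 to 0.77), while in pre-supporting cells at E11.75 it was still at −1.18. This comparison shares the KO E11.5 sample with that of XY KO E11.5 over XY control, so a gene that was low in that sample tends to have a higher ratio here. Ratios between the KO stages also rose with 3′ UTR length (Spearman's rho 0.47), whose part was not tested.

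SLCs of XX control were compared with those of XY control at E11.5. Of 6310 genes, 7 were at least 2-fold higher in XX, which is 0.111%, Xist among them with 930 UMIs in XX and none in XY control, and 85 were at least 2-fold lower, which is 1.35% (together 1.46%). Between the 2 runs of XX control 2 of 2085 genes passed 2-fold, or 0.0959%. With TMM factors the numbers were 17 and 55, and the median gene stood at −0.09. None of the 13 tested sex determination genes passed 2-fold in either direction, and Fst (0.17), Rspo1 (0.12), Wnt4 (−0.24), Runx1 (−0.12) and Fgfr2 (0.02) all lay near 0. In pre-supporting cells of the same pools Sox9 had a log2 ratio of −4.41 (−4.81 to −4.06) and Fst of 1.02. In SLCs the Sox9 ratio was 0.12 (−0.24 to 0.47).

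The highest ratios in XX SLCs, with Xist and Y-linked genes set aside, were small. Wfdc10 and Ccdc28a had 1.19 each, and Hist1h1b (1.05) and Gmnn (1.02) are S phase genes. Gmnn, the replication licensing inhibitor geminin, stood at 38.5 CPM in XY control and 78.3 in XX control. On the low side, Tpm3-rs7, a tropomyosin 3 related sequence whose reads may be shared with Tpm3, had −3.18, and Mid1, a gene at the pseudoautosomal boundary of the X chromosome, stood at 82.0 and 10.5 CPM in XY and XX control (−2.92, −3.90 to −2.16), as in pre-supporting cells (−3.47) and tubules (−2.83). Slc38a4, an imprinted amino acid transporter, was lower in XX SLCs, at 142, 154, 162 and 47.6 CPM (−1.57, −2.0 to −1.18). Pdgfa, a ligand made by supporting cells for interstitial cells, stood at 51.3 and 16.1 CPM in XY and XX control (−1.64). The cadherin Cdh6, known from kidney epithelium, was the 1 adhesion gene past 2-fold of 16, at 61.2 and 23.4 CPM (−1.37, −2.01 to −0.81), and 8 of these 16 had intervals below 0, against 17.5% of all genes below 0 and 7.81% above. Ncam1 was lower as well (−0.67). The XX pool came from breeding and was the deepest per cell, and neither can be told apart from sex.

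Markers of other cell types were summed over fixed lists in SLCs, in CPM. The interstitial and mesenchyme markers summed to 843, 879, 1083 and 753 CPM. The same sum was lower in pre-supporting cells (468, 548, 665 and 479) and in tubules (581, 480, 785 and 558). Maf, a member of this list, alone stood at 281, 216, 326 and 285 CPM in SLCs. The adrenal markers, Nr0b1 among them, summed to 188, 113, 101 and 230 CPM. Germ cell markers reached 44.5, 25.9, 29.4 and 20.2 CPM, immune markers 10.6, 2.72, 0 and 8.87, and neural crest markers 14.1, 10.9, 16 and 8.07. Tubule markers, Emx2 among them, summed to 329, 383, 451 and 333 CPM, and the sum changed less between samples than the Pax8 level did. This sum was higher in pre-supporting cells, at 428, 523, 548 and 493 CPM, and far higher in tubules, at 2574, 2034, 2735 and 1976. Sertoli markers, Sox9 among them, summed to 135, 73.9, 175 and 118 CPM, and Sox8 was at 0 in the E11.75 KO and in XX control. The part of these transcripts in the results was not tested.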

How the data were processed

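The data are single-cell RNA-seq UMI counts of 4 samples, deposited as a table of 52745 cells and 21495 genes. As the methods and labels describe, the authors aligned reads to mm10 with Cell Ranger 6.1.1, merged runs, filtered cells on mitochondrial and beta globin percent, UMIs and genes, removed doublets, integrated the samples in Seurat and named the clusters. The XY samples had their own limits on beta globin, and in the XX sample low-quality clusters were removed instead, which can move hemoglobin levels and depth between samples. The deposited metadata give mitochondrial and beta globin percent per cell. No column of per-sample values was left out.

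Counts of SLCs, pre-supporting cells (bipotential progenitors in the annotation) and mesonephric tubules were summed per sample with Python 3.11.15 (numpy 2.4.6, scipy 1.17.1) and scaled to CPM by total. Log2 ratios between samples used a prior count of 0.5 and genes whose UMIs in both samples summed to at least 100, with exact binomial intervals. Levels had Poisson and shares Clopper-Pearson intervals, all 95%. Differences of log2 ratios between cell types had intervals from the Poisson error. A gene was counted as past 2-fold at a log2 ratio of 1 or −1. There is 1 sample per group, so no test was made. Alternatives were TMM factors (edgeR 4.0.16 in R 4.3.3), thinning, other minimums and prior counts, single runs and other denominators. On counts simulated for XY KO E11.5 over XY control, 95.8% of intervals over 7131 genes held the true value. Those counts were drawn with counting error alone, so this checks the calculation and not the spread of real data. Between the technical runs of the same sample, intervals excluded 0 for 7.22% (XY control), 10.3% (XY KO E11.5) and 9.93% (XX control) of genes. The intervals are thus somewhat too narrow even for technical spread.

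Members and gene lists were chosen with earlier results of these data known. Named were genes of the fixed lists, the 15 genes with the highest smallest ratio over both other cell types, the 8 highest and 8 lowest ratios per comparison (without mitochondrial, ribosomal protein, globin and Gm42418 genes and, for XX, Xist and Y-linked genes), and the 6 largest differences per direction between cell types with the same sign at E11.75. Igfbp2, Hmcn1, Fbn2 and Asns, for being past 2-fold in both KO comparisons, and Gm42418, Xist and Hif1a were named after their values were seen.

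Some results are not reported here.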

Additional observations from a re-analysis of the deposited data

Results flagged for a closer look

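In 13 of the named genes the log2 ratio over XY control in SLCs had opposite signs in both KO samples, with neither 95% counting interval including 0 and at least 1 of both ratios past 2-fold. The difference between stages was not tested for any of them, since each KO stage is 1 pool, and both ratios share the XY control. Of these 13 genes 10 had been named for the size of their ratio between the KO stages, so their opposite signs are a description. Among all 6096 genes tested at both stages, mitochondrial, ribosomal protein and globin genes included, 31 met the same limits, which is 0.509%. Higher at E11.75 and lower at E11.5 were the immediate early genes Egr1 (2.66 at E11.75 and −1.43 at E11.5), Fosb (2.44 and −0.93) and Fos (1.53 and −1.65), the cytokine receptor subunit Il6st (2.07 and −1.17), the follistatin gene Fst (1.80 and −0.93), the integrin Itga6 (1.66 and −0.50), the FGF receptor Fgfr2 (1.54 and −0.59), the noncoding RNA Rmst (1.20 and −0.99), Runx1 (1.11 and −0.47) and the actin-bundling gene Espn (0.62 and −1.20). Lower at E11.75 and higher at E11.5 were the retinoic acid carrier Crabp1 (−1.78 and 0.51), the endoplasmic reticulum receptor Kdelr3 (−1.43 and 0.64) and the LIM protein Csrp2 (−1.21 and 0.55).

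Between the KO samples the immediate early genes differed by 4.09 (Egr1), 3.37 (Fosb) and 3.17 (Fos) on the log2 scale in SLCs. In tubules of the same pools the E11.75 over E11.5 ratio was 0.58 for Egr1, 0.70 for Fosb and −0.01 for Fos, and in pre-supporting cells 2.85, 1.94 and 1.12.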

How the results depend on the processing

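With 1 pool per group nothing here speaks to the spread between embryos. No paired analysis was possible because each group is 1 sample and no test was made. The 174 SLCs of XY KO E11.75 and the 88 of XX control limit precision most. Ratios between samples were read for genes with at least 100 UMIs. The exception was E11.75, where genes named for a difference between cell types had no such minimum. Ratios of SLCs over other cell types needed 100 UMIs in SLCs over all samples, so those of 1 sample can rest on fewer. Of 399 log2 ratios of named genes, TMM factors left 375 within their counting interval, thinning to 3000 UMIs 366, the mean of CPM over cells 395 and leaving out the 5% of cells with most UMIs 399. The sign turned for Ncam1 at E11.75 over E11.5 with TMM (−0.029), and with thinning for Vstm2l at E11.5 (0.033) and, in XX over XY control, for Cxcl12 (0.21), G6pc2 (−0.43) and Htra1 (0.23). The causes of the shifts were not tested.

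SLC shares were 3.34%, 2.93%, 2.05% and 2.40% of all cells, and in XY control 8.63% of gonadal cells with at least 3000 UMIs and 12.1% of gonadal cells without Sertoli cells. The number of genes past 2-fold at E11.5 (58 in the report) was 148 with a minimum of 50 UMIs, 6 with 500 and 32 with run 2 of the control alone. At E11.75 (269) it was 554, 29 and 138, and 174 with thinned cells. For E11.75 over E11.5 (373) it was 752 with 50 and 39 with 500 UMIs. For XX over XY (92) it was 233 and 8, 47 with a prior count of 5, and 42 and 49 with run 1 or run 2 of the control.

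List medians minus that of all genes moved with thinning to −0.90 for glycolysis at E11.75 over E11.5, to 0.44 and 0.43 for sex determination at E11.75 over control and over E11.5, to 0.14 for the WNT pathway at E11.75, to 0.34 and 0.38 for CDK inhibitors and G1 cyclins in the same pair of comparisons, to −0.35 for G2/M at E11.75, and for adhesion to 0.47 at E11.5, 0.34 at E11.75, 0.062 between stages and −0.32 in XX. With a minimum of 20 UMIs they moved to −0.25 for sex determination at E11.5 and 0.43 between stages, to 0.22 for CDK inhibitors and G1 cyclins at E11.75 and 0.0075 between stages, to −0.35 for G2/M at E11.75, to −0.27 for the WNT pathway in XX, and between stages to 0.086 for the WNT pathway, 0.28 for gonadal transcription factors, 0.029 for the Notch pathway and 0.060 for known targets.

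Shares of cells rose with depth. From 2000 to 5000 UMIs, both kinds of factor were found in 32.9% and 77.3% (XY control), 27.6% and 62.7% (E11.5 KO), 48.8% and 95.5% (E11.75 KO) and 24.1% and 65.5% (XX control) of SLCs. Nr5a1 was found in 16.9% and 30.9%, 13.3% and 26.8%, and 18% and 47.7% of the 3 XY samples, and Pax8 in 24.3% and 52.6%, 16.2% and 28.9%, and 24.4% and 56.8%. At least 2 UMIs of the S phase list were found in 81.8% and 100%, 81.4% and 99.3%, 83.7% and 100%, and 78.2% and 100%, and of the G2/M list in 94.1% and 100%, 89.6% and 99.3%, 87.8% and 100%, and 82.8% and 100%. Chosen after seeing the data, leaving Emx2 out gave 30.8%, 19.4%, 30.5% and 27.9% for both kinds of factor, a limit of 15 UMIs gave 0.580%, 1.37%, 0% and 4.65% for the S phase list and 2.13%, 2.97%, 1.42% and 5.81% for the G2/M list, and H19 at E11.5 without the cell richest in it was −7.14. Thinned marker levels were 415 CPM for Ncam1 and 0 for Dll3 in XX control, and for Cdkn1c 1688 in XY control and 2047 in XX control.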
